A study of Mus musculus with 8 samples.

Results

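The myosin light chains and sarcolipin were followed in whole hearts of mice lacking the nuclear receptor coactivator SRC-2 (gene Ncoa2) and of wild-type mice. The 8 genes were chosen by name: Sln, Myl7 and Myl4, typical of atrial myocytes, Myl2 and Myl3, typical of ventricular myocytes, Myl9 of smooth muscle, Myl6 of smooth and non-muscle cells, and Myl1 of fast skeletal muscle. They were 8 of 18194 genes measured, and each was read by its brightest probeset over all arrays. There were 4 SRC-2 knockout (KO) and 4 wild-type (WT) hearts, 1 heart to an array. All mice were unstressed males of the C57B/6Jx129Sv strain, fed ad lib and aged 10 to 12 weeks by the labels, and the methods describe KO and WT animals as littermates. The design of the KO allele is not given in the sources used here. The RNA came from total heart, so each array mixed atrial, ventricular, vascular and connective tissue in a proportion that was not recorded.

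Myosin, the motor of the thick filament, carries an essential and a regulatory light chain on each of its heads, and the atrial and ventricular walls of the mouse heart use different light chain genes. Phosphorylation of the regulatory chain, by dedicated kinases and against a myosin phosphatase, tunes force. Sarcolipin is a small membrane protein that inhibits the calcium pump of the sarcoplasmic reticulum, and in the mouse heart it is made chiefly in the atria, where phospholamban, its ventricular relative, is scarcer.

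Of the 8 genes, 7 matched an entry in the RefSeq promoter table (GRCm38.p6), and Sln did not. The 250 bases upstream of the listed start are shown for an atrial, a ventricular and a smooth muscle light chain, because each of these holds a CArG box, the element read by serum response factor. Capitals mark the CArG match.
Myl7, chr11:5898783-5899032, minus strand: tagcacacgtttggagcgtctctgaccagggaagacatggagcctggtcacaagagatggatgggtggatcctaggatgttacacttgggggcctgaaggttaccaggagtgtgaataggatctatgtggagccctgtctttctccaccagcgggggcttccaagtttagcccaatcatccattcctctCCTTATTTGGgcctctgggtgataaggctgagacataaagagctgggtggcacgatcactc
Myl3, chr9:110763428-110763677, plus strand: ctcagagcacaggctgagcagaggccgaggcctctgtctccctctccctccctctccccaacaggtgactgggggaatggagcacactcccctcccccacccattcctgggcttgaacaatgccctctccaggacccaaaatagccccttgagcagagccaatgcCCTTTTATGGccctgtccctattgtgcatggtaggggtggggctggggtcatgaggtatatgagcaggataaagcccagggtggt
Myl9, chr2:156775214-156775463, plus strand: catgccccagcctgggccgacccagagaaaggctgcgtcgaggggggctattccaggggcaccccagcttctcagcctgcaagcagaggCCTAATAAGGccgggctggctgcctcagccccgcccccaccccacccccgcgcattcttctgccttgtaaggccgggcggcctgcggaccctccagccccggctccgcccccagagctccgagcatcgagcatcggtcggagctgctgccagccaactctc
The match lay 61 bases upstream of the start in Myl7, 85 in Myl3 and 161 in Myl9. A CArG box was present in 3 of the 7 windows and in 1.47% of 32851 windows of the same length, searched on both strands. The 7 windows include those of Myl2 and Myl4. The starts listed for Myl2 and Myl4 may not be those used in the heart, so the lack of a match in their windows is not read and they are not printed. CArG was 1 of 7 motifs searched, and the 3 printed windows were chosen because they matched it. None of the 3 held a MEF2, T-box or nuclear receptor half-site match, found in 2.92%, 11.8% and 14% of all windows. GATA and E-box letters matched in Myl7 and Myl3 (53.6% and 66.2% of all windows), and NKX2-5 letters in Myl7 (40.7%). A match is a description of letters, not a binding site.

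The arrays had a median probeset signal of 75.6 to 83.2 in KO hearts and 77.0 to 87.3 in WT hearts. Ncoa2 itself was read at 237, 259.6, 267 and 235 in KO hearts 1 to 4, against 1660.3, 2115, 1827 and 2134.1 in WT hearts 1 to 4, a log2 fold change of −2.95 (limma, adjusted p = 5.8e-04). All signals are on the deposited linear intensity scale, fold changes are KO minus WT on the log2 scale, and signals of different probesets are not comparable as levels. Of the 6 ventricular markers, Myl2, Myl3 and Pln read 51588 or more in every heart, Irx4 read 445 to 635, Hey2 62.4 to 173, and Kcnj2 at most 13.5, which is near background (a mean signal under 50).

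Sln, the sarcolipin gene, had the largest difference of the 8. It was read at 20862, 6285, 348 and 4271 in KO hearts 1 to 4, against 30692, 46212, 36091 and 23815 in WT hearts 1 to 4. All KO hearts lay below all WT hearts, and KO heart 3 was far below the other KO hearts. The means were 7941 ± 8959 in KO hearts and 34203 ± 9452 in WT hearts (SD, n = 4 each). The log2 fold change was −3.15, with a 95% interval of −5.83 to −0.48 and an adjusted p of 0.454 in a limma fit with a common prior variance, and an interval of −5.03 to −1.27 and an adjusted p of 0.148 with a trended prior variance. The exact permutation test over the 8 hearts, two-sided, gave p = 0.0286, the smallest it allows for 4 against 4. Sln was the member whose groups did not overlap (1 of 8), and over all genes 3.72% had every KO heart below every WT heart. In whole-heart RNA, fewer atrial cells and less RNA per atrial cell cannot be told apart. A dimmer Sln probeset gave 146, 102, 14.3 and 10.5 in KO hearts, against 345, 426, 295 and 205 in WT hearts. It was near background in KO hearts 3 and 4, so no fold change is given for it.

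Myl7, the atrial regulatory light chain, was read at 45856, 17756, 1475 and 9999 in KO hearts 1 to 4, against 57686, 64438, 56445 and 39799 in WT hearts 1 to 4. The groups overlapped, because KO heart 1 lay above WT heart 4, while the other 3 KO hearts lay below every WT heart. The means were 18771 ± 19241 in KO hearts and 54592 ± 10469 in WT hearts (SD, n = 4 each). Its log2 fold change of −2.36 had an interval of −4.61 to −0.11 (adjusted p = 0.481) with the common and −3.94 to −0.78 (adjusted p = 0.188) with the trended prior, and the exact permutation p was 0.0571.

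Myl4, the atrial essential light chain that is also made in fetal ventricle, was read at 44956, 17168, 1973 and 10964 in KO hearts 1 to 4, against 52238, 63767, 50235 and 35748 in WT hearts 1 to 4. As for Myl7, KO heart 1 lay within the WT range and the other 3 KO hearts lay below it. The log2 fold change was −2.12, with an interval of −4.17 to −0.08 (limma, common prior, adjusted p = 0.487) or −3.56 to −0.68 (trended prior, adjusted p = 0.194), and the exact permutation p was 0.0571. The means were 18765 ± 18542 in KO hearts and 50497 ± 11499.6 in WT hearts. A much dimmer Myl4 probeset gave a log2 fold change of −0.82, near background in KO heart 4, with overlapping groups at 169, 59.2, 68.1 and 43.2 in KO hearts and 178, 111, 149 and 95.8 in WT hearts (exact permutation p = 0.143).

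**Figure D1:**
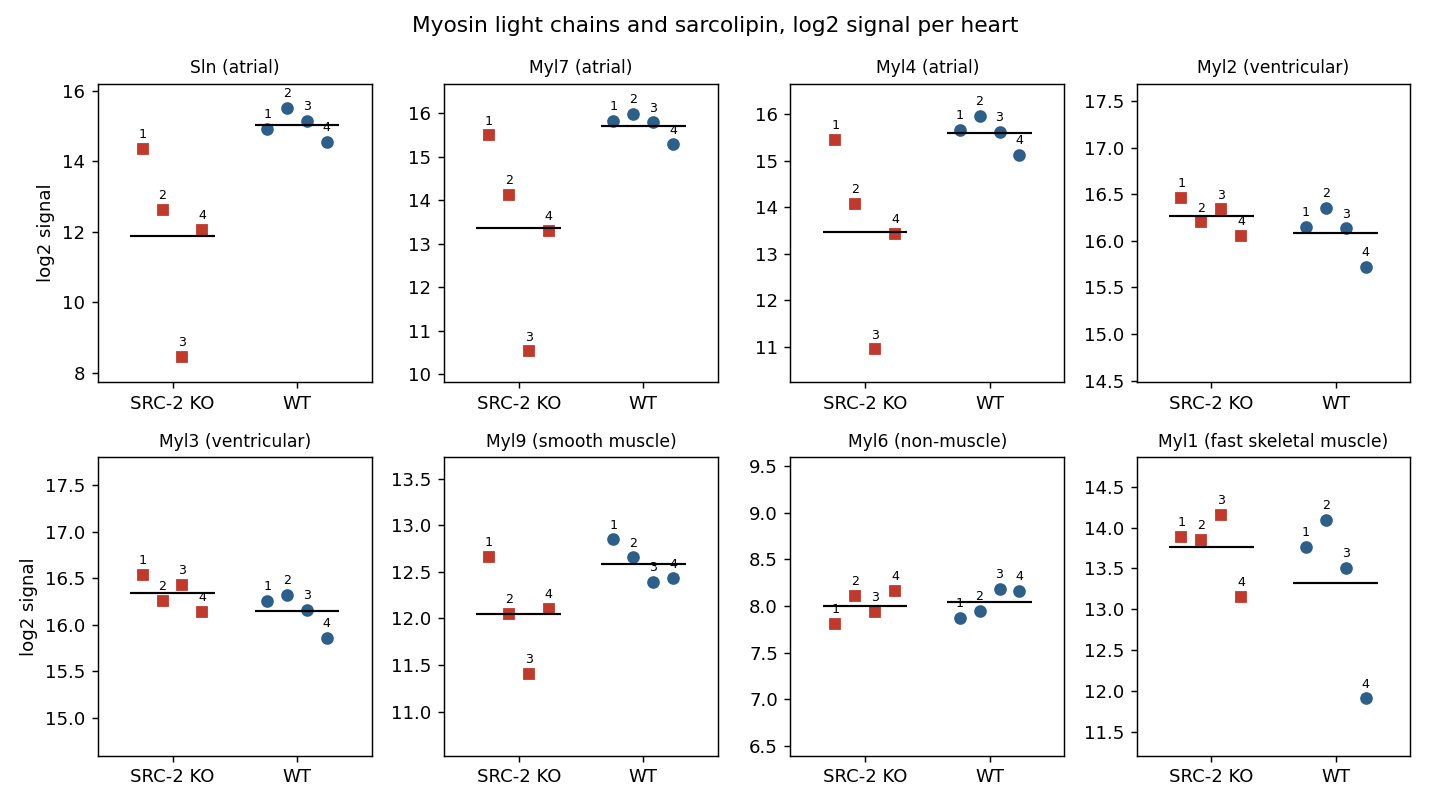
Log2 signal (each panel with its own axis range) of 7 myosin light chain genes and Sln in 4 KO hearts (left) and 4 WT hearts (right), 1 point per heart with the replicate number beside it, and the bar at the mean of the log2 signals. For Sln, Myl7 and Myl4 the KO hearts spread over 22.8-fold to 60.0-fold and lie lowest in KO heart 3, while Myl2 and Myl3 differ little between genotypes.

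The KO hearts were far from alike in the atrial genes. As a percentage of the geometric mean of WT hearts, Sln stood at 62.8, 18.9, 1.05 and 12.9 in KO hearts 1 to 4, Myl7 at 85.3, 33.0, 2.74 and 18.6, and Myl4 at 90.9, 34.7, 3.99 and 22.2. The order of KO hearts was the same for all 3 genes (1 highest, then 2, 4 and 3), an order that 4.00% of 18194 genes shared. The highest KO heart exceeded the lowest 60.0-fold for Sln, 31.1-fold for Myl7 and 22.8-fold for Myl4, against 1.94-fold, 1.62-fold and 1.78-fold among WT hearts. Among the 9097 genes above the median signal, the SD of the log2 signals in KO hearts, counted from the highest, ranked Sln at 2, Myl7 at 3 and Myl4 at 5 (SD 2.48, 2.09 and 1.89), against a median SD of 0.177 for KO hearts over those genes. In WT hearts the same SDs were 0.40, 0.30 and 0.35, beside a median of 0.175.

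Myl2, the ventricular regulatory light chain, was read at 89828, 75069, 82663 and 68028 in KO hearts 1 to 4, against 72768, 83641, 71771 and 53807 in WT hearts 1 to 4. Its groups overlapped, with means of 78897 ± 9425 in KO hearts and 70497 ± 12357 in WT hearts (SD, n = 4 each). For Myl2 a log2 fold change of 0.17 had an interval of −0.22 to 0.56 (limma, common prior, adjusted p = 0.741; exact permutation p = 0.343), and it was −0.023 after quantile normalization, so its direction is not settled.

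Myl3, the ventricular essential light chain, was read at 94945, 78296, 88123 and 72075 in KO hearts 1 to 4, against 78308, 82093, 73197 and 59432 in WT hearts 1 to 4. These groups overlapped too, at 83359 ± 10164 in KO hearts and 73258 ± 9911 in WT hearts. The log2 fold change was 0.19 (95% interval −0.16 to 0.54, limma, adjusted p = 0.691, exact permutation p = 0.286), and 2 further Myl3 probesets gave 0.27 and 0.17. After quantile normalization the log2 fold change was 0.0089. The interval leaves out neither 0 nor a modest difference in either direction. In KO hearts both ventricular genes ran in the order 1, 3, 2, 4 from high to low, not in the order of the atrial genes. This order was found in 5.04% of 18194 genes.

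**Figure D2:**
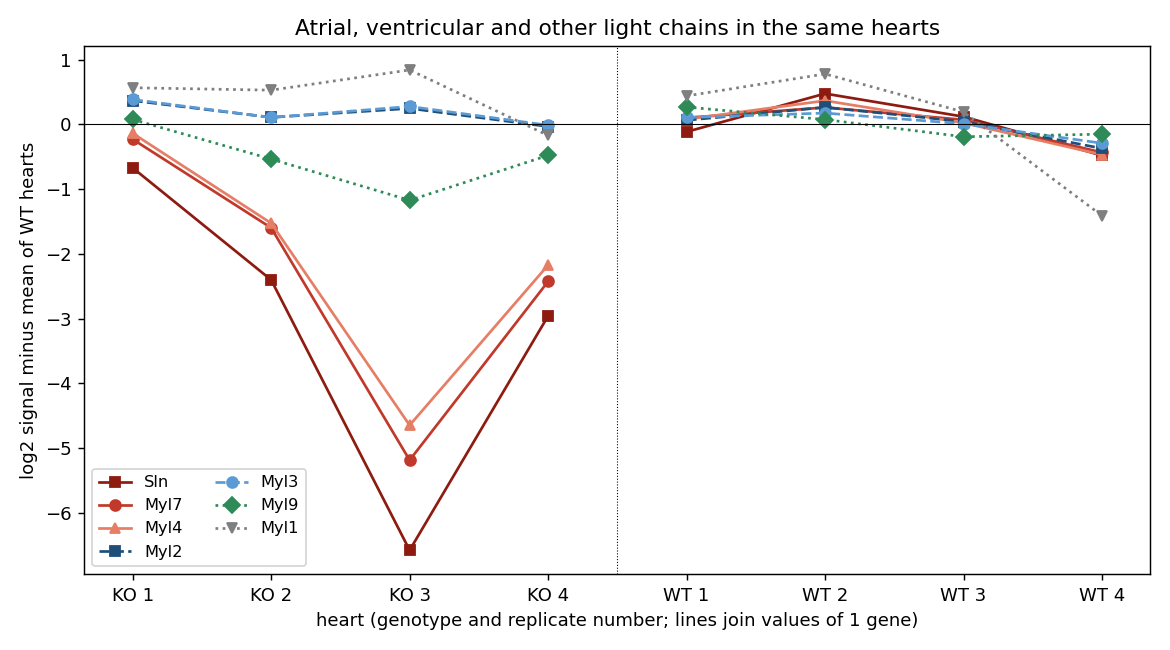
Log2 signal minus the mean of WT hearts, for the members other than Myl6, in each of 4 KO hearts (left) and 4 WT hearts (right). Sln, Myl7 and Myl4 descend together in KO hearts 2, 4 and 3, to −6.58 for Sln in KO heart 3, while Myl2 and Myl3 stay close to 0.

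To set atrial against ventricular genes within each heart, the mean log2 signal of Sln, Myl7 and Myl4 was taken less that of Myl2 and Myl3, and less the WT mean of this difference. It was −0.72, −1.95, −5.73 and −2.50 in KO hearts 1 to 4, against −0.06, 0.15, 0.04 and −0.13 in WT hearts 1 to 4. The genotypes did not overlap, and the KO mean lay 2.73 log2 units below WT, with an SD of 2.14 in KO hearts and 0.12 in WT hearts. This value carries no test. Without KO heart 3 the difference between genotypes was −1.72, and Sln, Myl7 and Myl4 gave −2.01, −1.42 and −1.28, each still below 0.

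Myl9, the smooth muscle regulatory light chain, was read at 6461, 4226, 2718 and 4397 in KO hearts 1 to 4, against 7376, 6452, 5368 and 5518 in WT hearts 1 to 4. KO heart 3 was again the lowest, while KO heart 1 exceeded WT hearts 2, 3 and 4, so that groups overlapped. The log2 fold change was −0.53 (95% interval −1.15 to 0.09, limma, common prior, adjusted p = 0.548), or −0.97 to −0.09 with the trended prior (adjusted p = 0.291), with means of 4450.3 ± 1538 in KO hearts and 6178 ± 931 in WT hearts and an exact permutation p of 0.114. Without KO heart 3 the log2 fold change was −0.31.

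Myl6, an essential light chain of smooth muscle and non-muscle myosin, was read at 224, 275, 245 and 287 in KO hearts 1 to 4, against 234, 247, 290.3 and 286 in WT hearts 1 to 4. The groups coincided, at 258 ± 28.6 in KO hearts and 264 ± 28.1 in WT hearts. A log2 fold change of −0.04 (95% interval −0.35 to 0.27, limma, adjusted p = 0.937) took the opposite sign under median centring (0.025) and under quantile normalization (0.060). This probeset alone was assigned to Myl6, and 2 more that list it together with other genes were left out.

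Myl1, the fast skeletal essential light chain, was read at 15118, 14731, 18293 and 9073 in KO hearts 1 to 4, against 13853, 17524, 11663 and 3839 in WT hearts 1 to 4. WT heart 4 was by far the lowest of the 8, and the groups overlapped at 14304 ± 3835 in KO hearts and 11719.9 ± 5783 in WT hearts. Its log2 fold change of 0.44 (95% interval −0.70 to 1.59, limma, adjusted p = 0.775) was −0.029 without WT heart 4.

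Of the 8 members, 0 passed an adjusted p of 0.05 in the common-variance fit, against 0.022% of all genes, and 0 in the trended fit, against 0.374%. At an unadjusted p under 0.05 there were 3 in the common-variance fit (Sln, Myl7 and Myl4), where 10% of all genes fell below that threshold, and 4 in the trended fit (with Myl9), where 12.6% did. Log2 fold changes were below 0 for 5 of 8 members and for 53.1% of all genes. A p-value that misses the threshold does not show that KO and WT hearts are alike, and the intervals of Sln, Myl7 and Myl4 hold decreases of several fold.

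**Figure D3:**
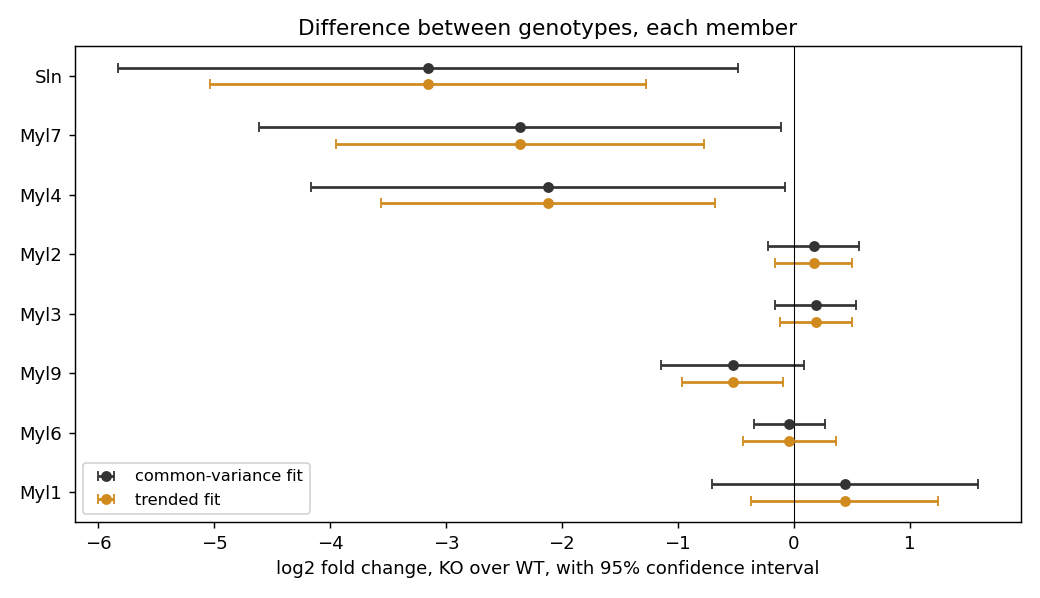
Log2 fold change, KO minus WT, of the 8 members with 95% intervals from the common-variance fit and from the trended fit across 18194 genes. The intervals of Sln, Myl7 and Myl4 lie below 0 in both fits, that of Myl9 in the trended fit, and those of Myl2, Myl3, Myl6 and Myl1 span 0.

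The deviations of the members from their genotype means were compared pair by pair. Over the 8 hearts, Pearson r was 0.995 between Sln and Myl7 (Spearman rho 0.905), 0.996 between Sln and Myl4 (0.905) and 0.998 between Myl7 and Myl4, whose ranks were identical. Leaving out KO hearts 3 and 1, the farthest from the median, left 0.914, 0.941 and 0.976. Myl2 and Myl3 were tied at 0.978 (0.921 without WT heart 4 and KO heart 4), while atrial and ventricular genes gave 0.14 to 0.24. Without KO hearts 3 and 1 the atrial and ventricular pairs gave 0.40 to 0.67, so their low r rests on those hearts. Myl1 gave 0.928 with Myl2 and 0.893 with Myl3 (0.635 and 0.526 without WT heart 4 and KO heart 4), and Myl6 gave −0.733 with Myl2 and −0.841 with Myl3 (−0.636 and −0.859). Myl9 with the atrial genes gave 0.90 to 0.92, but only 0.14 to 0.34 without KO hearts 3 and 1, so that relation rests on those hearts. These are descriptions of 28 pairs, and the hearts share array scaling.

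Among 9089 other genes above the median signal, those most like the atrial members were Mybphl, a myosin-binding protein gene of the heart, and Nppa, which encodes atrial natriuretic peptide. Mybphl gave r = 0.979 with Sln, 0.984 with Myl7 and 0.990 with Myl4, and Nppa gave 0.974, 0.980 and 0.987. Mybphl was read at 2626, 733, 119 and 501 in KO hearts 1 to 4, against 5235, 6225, 5170 and 3176 in WT hearts 1 to 4, without overlap (log2 fold change −3.05, limma, trended prior, adjusted p = 0.0770). Nppa was read at 81985, 36355, 12519 and 29561 in KO hearts, against 73944, 80208, 70523 and 53657 in WT hearts, with overlap (log2 fold change −1.09). The next genes for all 3 were Alyref and Cdk10, with Lars2 for Sln and Myl7 and Fgf12 for Myl4, at r of 0.961 to 0.979. Fgf12 passed in the trended limma fit (log2 fold change −2.63, adjusted p = 0.0368), where 0.253% of all genes were lower, but not in the common-variance fit (adjusted p = 0.334). Lars2 had −0.89 (trended prior, adjusted p = 0.0986), and neither gene had overlapping groups. Alyref and Cdk10 had −0.07 each, with overlap. Without KO hearts 3 and 1, Mybphl kept 0.820 to 0.933 and Nppa 0.775 to 0.911. In the same hearts Fgf12 kept 0.854 with Myl4, Alyref 0.596 to 0.746, Cdk10 0.540 to 0.625, and Lars2 0.524 with Sln and 0.415 with Myl7.

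The genes most like the other members were named in the same way. For Myl2 these were Atp5o (r = 0.994), Cox6c, Mb, Arfgef1 and Atp5j2, of which Mb encodes myoglobin. For Myl3 they were Uqcrh and Tnni3 (both r = 0.997), Tpt1, Tpm1 and Chchd10, of which Tnni3 encodes cardiac troponin I. For Myl9 they were Abcf2 (r = 0.968), Reep1, Foxk2, Mrps6 and Slc38a4, and for Slc38a4 r was 0.610 without KO hearts 3 and 1. All genes named for Myl2 and Myl3 had KO hearts in the order 1, 3, 2, 4 and WT hearts in the order 2, 1, 3, 4. All of them except Arfgef1 were very bright, at 33942 or more in every heart. The part of array scaling in these r values was not tested.

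Other atrial marker genes were read beside the atrial members. Of 15 measured atrial markers, members included, 14 had a log2 fold change below 0, as did 53.1% of all genes. The median was −1.09 against −0.03 over all genes. The count and the median include the 3 atrial members, and also Gja5, the 1 gene of the list near background. Every KO heart lay below every WT heart for 7 of the 15, Sln included, and for 3.72% of all genes. In the trended fit 2 passed and were lower in KO hearts, as were 0.253% of all genes. They were Nr2f2, a nuclear receptor that maintains atrial identity, at 657, 600.3, 352 and 639.5 in KO hearts against 1041, 1473, 1521 and 960.2 in WT hearts (−1.16, adjusted p = 0.0368), and Tbx5, a cardiac T-box factor, at 632, 440.1, 365 and 419 in KO hearts against 929, 1066, 1052 and 709 in WT hearts (−1.03, adjusted p = 0.0368). Neither passed in the common-variance fit, and in both genes KO heart 3 was the lowest. Of the 12 atrial markers other than the members, 3 (Mybphl, Nppa and Tbx5) had the order of KO hearts seen in Sln, Myl7 and Myl4, an order found in 4.00% of all genes. Other markers of the list ran differently among KO hearts. Kcnj5 was highest in KO heart 3 (1650), and Hey1 was lowest in KO heart 1 (189). Kcnj3 and Kcna5 were lowest in KO heart 4 (1446 and 1400). The summed signal of the list ran between 23192 and 204815 in KO hearts and between 166443 and 274642 in WT hearts. A summed signal follows the brightest probesets of its list. Here these were Nppa, which is not a member, and Myl7, Myl4 and Sln, so the sum largely restates those genes. In KO heart 3 Nppa read 12519, above Myl7, Myl4 and Sln at 1475, 1973 and 348. The part that atrial tissue content had in the values of Sln, Myl7 and Myl4 was not tested.

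**Figure D4:**
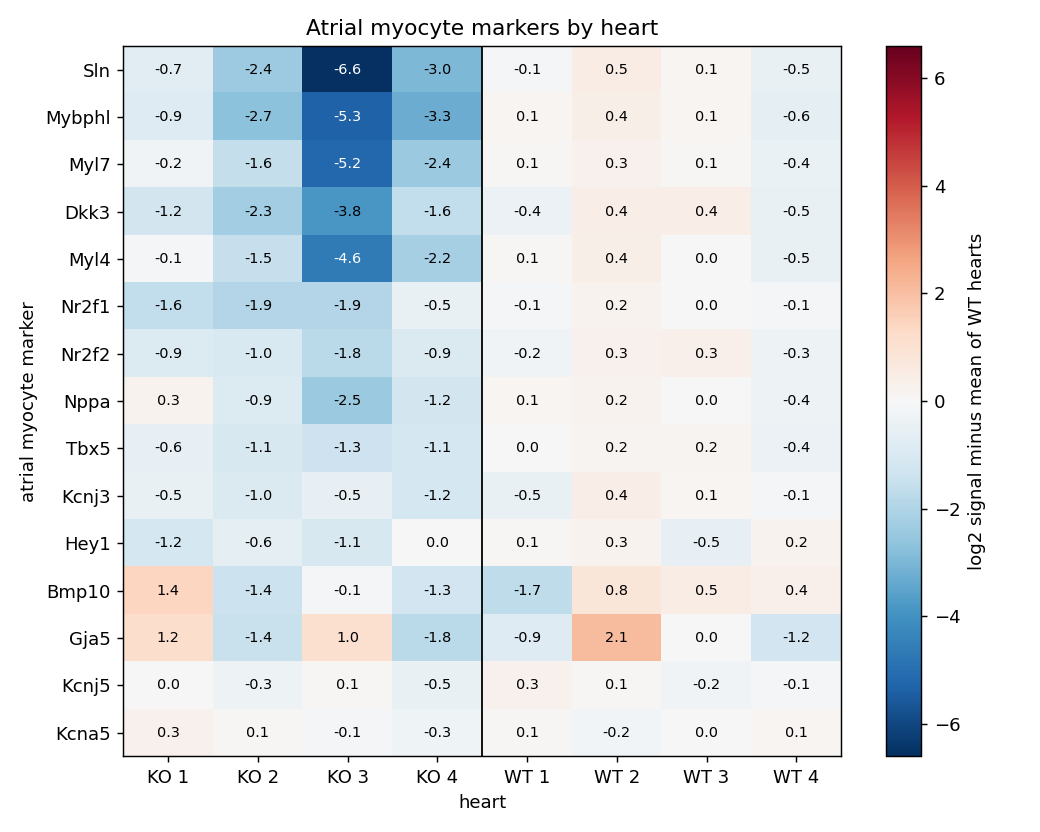
Log2 signal minus the mean of WT hearts for the 15 measured atrial markers (rows) in 4 KO hearts (left columns) and 4 WT hearts (right columns), with the 3 atrial members among them. In 5 of the 12 rows that are not members KO heart 1 is the highest and KO heart 3 the lowest of the KO hearts, as in 8.51% of all genes, and Kcna5 shows no mean difference (0.00).

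The 6 ventricular markers had a median log2 fold change of 0.18 with 0 passing, and the 12 shared cardiomyocyte genes had a median of 0.14 with 0 passing. Over all genes 0.374% passed in the trended fit and 0.022% in the common-variance fit. After quantile normalization the ventricular median was 0.035, with 2 of the 6 below 0, so its direction is not settled. All 12 of the shared genes were above 0 as deposited and after median centring, but only 5 were after quantile normalization (median −0.022), so no direction is given for them. The summed signal of the ventricular list was 202944 to 263509 in KO hearts and 165349 to 229549 in WT hearts. It came almost wholly from Myl2, Myl3 and Pln. Of the regulators of calcium uptake, Pln, which encodes phospholamban, had a log2 fold change of 0.23 (limma, trended prior, adjusted p = 0.490), and Atp2a2, the cardiac calcium pump itself, 0.19 (adjusted p = 0.645). With Sln, these belong to a list of 6 measured SERCA pumps and small regulators, of which 0 passed and 4 were below 0 (3 after median centring).

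Markers of other cell types gave the setting for Myl9 and Myl1. Of 10 smooth muscle markers, 7 were below 0 (median −0.29), and 1 passed in the trended fit: Acta2, smooth muscle actin, rose (0.74, adjusted p = 0.0422, where 0.121% of all genes were higher), at 39204, 27061, 34826 and 41324 in KO hearts against 22846, 19454, 19127 and 23289 in WT hearts, opposite in sign to Myl9. All KO hearts were above all WT hearts for Acta2, as for 3.12% of all genes. Of 10 skeletal muscle markers, 6 were below 0 and 4 above 0 (Myl1, Mylpf, Myh2 and Actn3), with a median of −0.64. Of the 10, 4 were near background, and 1 passed in the trended fit, where 0.253% of all genes were lower. It was Tnni2, fast troponin I, which fell (−2.10, adjusted p = 0.0368), at 204, 58.4, 162 and 163 in KO hearts against 725, 755, 317 and 605 in WT hearts. Acta2 and Tnni2 did not pass in the common-variance fit. Tnni2 and Myl1 had opposite signs, and Acta1, skeletal actin, had −1.37 (adjusted p = 0.203). Fibroblast, macrophage and endothelial lists had medians of −0.69, −0.37 and −0.31 with all 8 genes of each below 0 and 0 passing, except that 1 macrophage gene was above 0 after quantile normalization. The summed fibroblast signal was 59426 to 92646 in KO hearts and 88229 to 146254 in WT hearts, the macrophage signal 15101 to 18869.6 in KO hearts and 19679.96 to 25264 in WT hearts, and the endothelial signal 8723 to 12064 in KO hearts and 11710.1 to 14319.7 in WT hearts. The part of these cell types in the Myl9 values was not tested. Conduction and epicardial lists had 4 of 5 genes below 0 each, and adipocyte and erythroid lists had all of their 4 and 2 measured genes above 0. In these lists 0 passed, where 0.374% of all genes did in the trended fit.

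Among the genes that act with light chains, 0 passed in either fit, where 0.022% (common-variance) and 0.374% (trended) of all genes did. The other measured light chains were 5, of which 3 were below 0 (median −0.04, and 2 after median centring): Myl12b, a non-muscle regulatory chain, had −0.33 (limma, trended prior, adjusted p = 0.255), Myl12a −0.04 and Mylpf, the fast skeletal regulatory chain, 0.28. Of 7 myosin heavy chain genes 4 were below 0 (3 after median centring), with Myh6, the alpha chain, at 0.21 and Myh7, the beta chain, at −0.04. Of 10 kinase and phosphatase genes 4 were below 0 (median 0.08), with Mylk3, the cardiac light chain kinase, at 0.20, Dapk3 at 0.37 and Rock1 at −0.18.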

How the data were processed

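RNA from 8 hearts (4 KO, 4 WT) was hybridised to Affymetrix mouse 430 2.0 arrays, 1 heart each. RMA, Partek and Affymetrix Expression Console are the tools listed by the submitters. The deposited table holds intensity values on a linear scale, and every array has the same trimmed mean (2% of probesets at each end). This scaling was read from the values, and its relation to the listed RMA step was not established. The deposited values were log2-transformed, without a floor or further normalization. Of 45101 probesets, 34958 listed 1 gene symbol, and the brightest of each gene gave 18194 genes. Genes were compared with limma 3.58.1 in R 4.3.3, two-sided, with Benjamini-Hochberg adjustment over all genes, and with a common prior variance and then a trended one. Single genes were also compared by an exact permutation test. The code was tested on simulated data.

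Genes named were Ncoa2, the 8 members, list genes that passed in either fit with up to 3 others of smallest p, and the 5 genes most like each of 6 members. Further genes of the lists were added outside this rule, with their values known. They were Atp2a2, Myh6, Myh7, Irx4, Hey2, Myh2 and Actn3, and the atrial markers Kcna5, Kcnj3, Kcnj5, Hey1 and Gja5. The members and lists were chosen with earlier results of these data known. Lists covered atrial, ventricular, shared cardiomyocyte, smooth muscle, skeletal muscle, conduction, endothelial, fibroblast, macrophage, epicardial, adipocyte and erythroid markers, other light chains, heavy chains, light chain kinases and phosphatase, and SERCA regulators. Alternatives changed the variance model, probeset choice, floor, dim-gene filter, scaling, block and hearts included. The 3′ minus 5′ log2 difference of the Gapdh control was −0.10 ± 0.04 in KO hearts and −0.05 ± 0.06 in WT hearts (SD, n = 4 each, exact permutation p = 0.171), and that of the beta-actin control was 1.43 ± 0.07 in KO hearts and 1.34 ± 0.03 in WT hearts (p = 0.114, same exact permutation test). The labels do not name litters or batches, so p-values measure only the spread between these hearts, and the number of arrays limits the precision. Comparison values from the paper were not used. Promoters came from RefSeq (GRCm38.p6), and 7 motifs were searched on both strands.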

Additional observations from a re-analysis of the deposited data

Results flagged for a closer look

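In 3 of 152 groups of 4 hearts, drawn from the genes named by the rule and the atrial minus ventricular score, 1 heart lay apart from the others by more than Dixon's 95% critical value for 4 samples, where chance gives about 1 in 20 groups. Nr2f2, an atrial marker, was lowest in KO heart 3, with a gap of 0.856 of the range (352 against 600.3 to 657 in the other KO hearts). Rock1, a kinase that acts on myosin phosphatase, was lowest in KO heart 2, with a gap of 0.88 of the range (4949.9 against 6469 to 6710.3). Mylpf, a skeletal light chain, was highest in WT heart 1, with a gap of 0.84 of the range (227 against 77.0 to 91.5). None of the 8 members was among them.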

How the results depend on the processing

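The number of members that passed was 0 under all 29 settings. Over all genes, 1 was higher and 3 were lower in KO hearts with the common prior, against 22 and 46 with the trended prior, 0 and 1 with each gene's own variance, 0 and 1 with the mean of all probesets, and 0 and 1 with the second brightest probeset. With genes of mean signal above 100 only, 13 were lower. A floor of 50 and quantile normalization each left 0 higher. Leaving out 1 heart at a time gave 0 to 104 higher and 1 to 216 lower over both priors, with the highest counts without KO heart 4. The cause was not tested. With the replicate number as a block the counts were 0 higher and 0 lower. Deviations of same-numbered hearts gave low correlations (r = 0.06, −0.08, −0.02 and 0.11). Hearts 1 and 4 correlated best with their own number, and hearts 2 and 3 did not. Litters are not labelled, so these values cannot tell whether any hearts were paired.

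The log2 fold changes of Sln, Myl7, Myl4, Myl3 and Myl9 kept their sign under all settings. Settings that change only the variance model leave a fold change as it is. Myl3 fell to 0.0089 after quantile normalization, so its direction is not settled. Leaving out 1 heart moved Sln between −3.98 and −2.01, Myl7 between −3.07 and −1.42 and Myl4 between −2.78 and −1.28, the first without KO heart 1 and the second without KO heart 3, and the lowest adjusted p was 0.0554 for Sln (trended prior, without KO heart 1, range over its settings 0.0554 to 0.639). Myl4 gave −0.82 by its second brightest probeset. The atrial minus ventricular difference lay between −3.39 and −1.72 on leaving out a heart, and between −2.73 and −2.28 otherwise. Myl6 took the opposite sign with median centring (0.025), quantile normalization (0.060), without KO heart 1 (0.028, its highest on leaving out a heart, where the lowest was −0.094) and without WT hearts 3 (0.0097) or 4 (0.0031). Myl2 reversed with quantile normalization (−0.023) and Myl1 without WT heart 4 (−0.029, against 0.70 at its highest). The spread among KO hearts and 4 hearts a group limit what can be called.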
